A study of Ovis aries with 40 samples.

Results

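The interferon-induced genes described here, 8 of the 24478 genes in the gene tables, were followed across fetal and term sheep lung: the chemokines *CXCL10* and *CXCL11*, the ubiquitin-like modifier *ISG15*, the antiviral effectors *MX1*, *MX2* and *RSAD2*, the small membrane protein gene *IFI6* and the transcription factor gene *IRF7*. They were taken by gene symbol, as genes known to be induced by interferon, with earlier results of these data known. All 8 symbols were found and all 8 passed the filter on low counts in every fit, so no member was left out. Levels are given as CPM, the usual RNA-seq scale of a gene's counts relative to the total of its library, with totals scaled over the 40 libraries, and differences as log2 fold changes with their standard error (SE).

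The study followed the lung of wild-type (WT) sheep and of sheep without *CFTR*, the chloride channel gene mutated in cystic fibrosis (CF), by bulk RNA-seq of proximal and distal lung at gestation days 65, 80, 100 and 120 and at term, labelled day 147. Each of the 20 conditions (genotype, region and day) had 2 libraries, and the proximal and distal library with the same number came from the same animal by the labels. All animals were American Romney sheep. The CF animals (*CFTR*-/-) were made by somatic cell nuclear transfer from a single line of male fetal fibroblasts targeted in *CFTR* exon 2, whereas the WT animals were bred and those at term were born naturally and euthanised some time after birth. Genotype therefore cannot be told apart from cloning and from the single donor line, nor, at term, from birth. The labels give both WT animals of day 100 the same animal identifier, so these 2 libraries of a region may be 1 animal, and they give WT day 65 replicate 2 and CF day 100 replicate 2 the same identifier although genotype and age differ.

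Interferons are secreted when cells sense foreign or misplaced nucleic acid. Type I and type III interferons act through receptor-bound kinases, TYK2 among them, on a complex that holds IRF9 and switches on antiviral genes. CXCL10 and CXCL11, with their neighbour CXCL9, are the ligands of the receptor CXCR3 on activated T cells and natural killer cells. CXCL10 is also induced through NF-kappaB, and many of the antiviral genes are kept at a low tonic level in tissues without infection.

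The libraries differed in depth with the groups. Before term the total gene counts of the 16 WT libraries ran from 24670355 to 43700012 and those of the 16 CF libraries from 85773994 to 103139483. At term the 4 WT libraries held 115937437 to 126749480 and the 4 CF libraries 117316905 to 119451372 counts, so depth and genotype cannot be told apart before term. Within each genotype the term libraries were deeper than all earlier ones, so depth and term cannot be told apart either. The step in depth was larger in WT, so this holds also for the difference between genotypes in the change to term. Among genes with 2 to 19 reads, 72.8% to 87.1% of the counts of a library were even numbers, so a count is not 1 independent molecule. *CFTR*, read here from every exon and not from the targeted one alone, was at 11.02 to 43.8 CPM in WT and 4.99 to 34.9 CPM in CF before term, and at 9.58 to 14.8 CPM in WT and 3.65 to 5.14 CPM in CF at term. The lung transcription factor gene *NKX2-1* had group means of 69.6 to 203 CPM, so the labelled tissue carried its defining marker throughout. The library labelled CF proximal day 120 replicate 2 stood apart from its replicate in several members, as given below. Nothing in the labels says more about separate animals than the identifiers, and p-values measure the spread between these libraries.

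In the sheep assembly Oar_v4.0, *CXCL10* (chr6:90454437-90456790, minus strand) and *CXCL11* (chr6:90473484-90475349, minus strand) are neighbours, and so are *MX2* (chr1:259515453-259554045, plus strand) and *MX1* (chr1:259561625-259596486, plus strand). *ISG15* lies at chr12:49466564-49467619 on the minus strand, *RSAD2* at chr3:16520599-16539212 on the plus strand, *IFI6* at chr2:238530640-238534368 on the plus strand and *IRF7* at chr21:49360779-49363377 on the plus strand. The counts cover all annotated exons of each gene. *MX1* and *MX2* are related genes, and reads common to both could have been split or dropped, which was not tested.

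The list was led by different genes early and late. Per kb of gene length, *CXCL10* had the highest level of the 8 genes in 15 of the 16 libraries of days 65 and 80, and *IFI6* in the other 1. At days 100 and 120 *IFI6* was highest in 15 of 16 libraries and *MX1* in 1, and at term *IFI6* was highest in 8 of 8. Median CPM per kb of *CXCL10* went from 58.3 at days 65 and 80 to 3.65 at days 100 and 120 and 5.62 at term. That of *IFI6* went from 7.41 to 30.2 and 70.6, and that of *MX1* from 2.25 to 14.1 and 19.6. *ISG15* had medians of 1.19, 8.89 and 22.4 CPM per kb. *MX2*, the lowest of the 8 at days 65 and 80 by its median of 0.0405 CPM per kb, had medians of 0.277 and 1.30 later. *CXCL11* was the lowest at term by its median, at 0.317 CPM per kb.

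**Figure D1:**
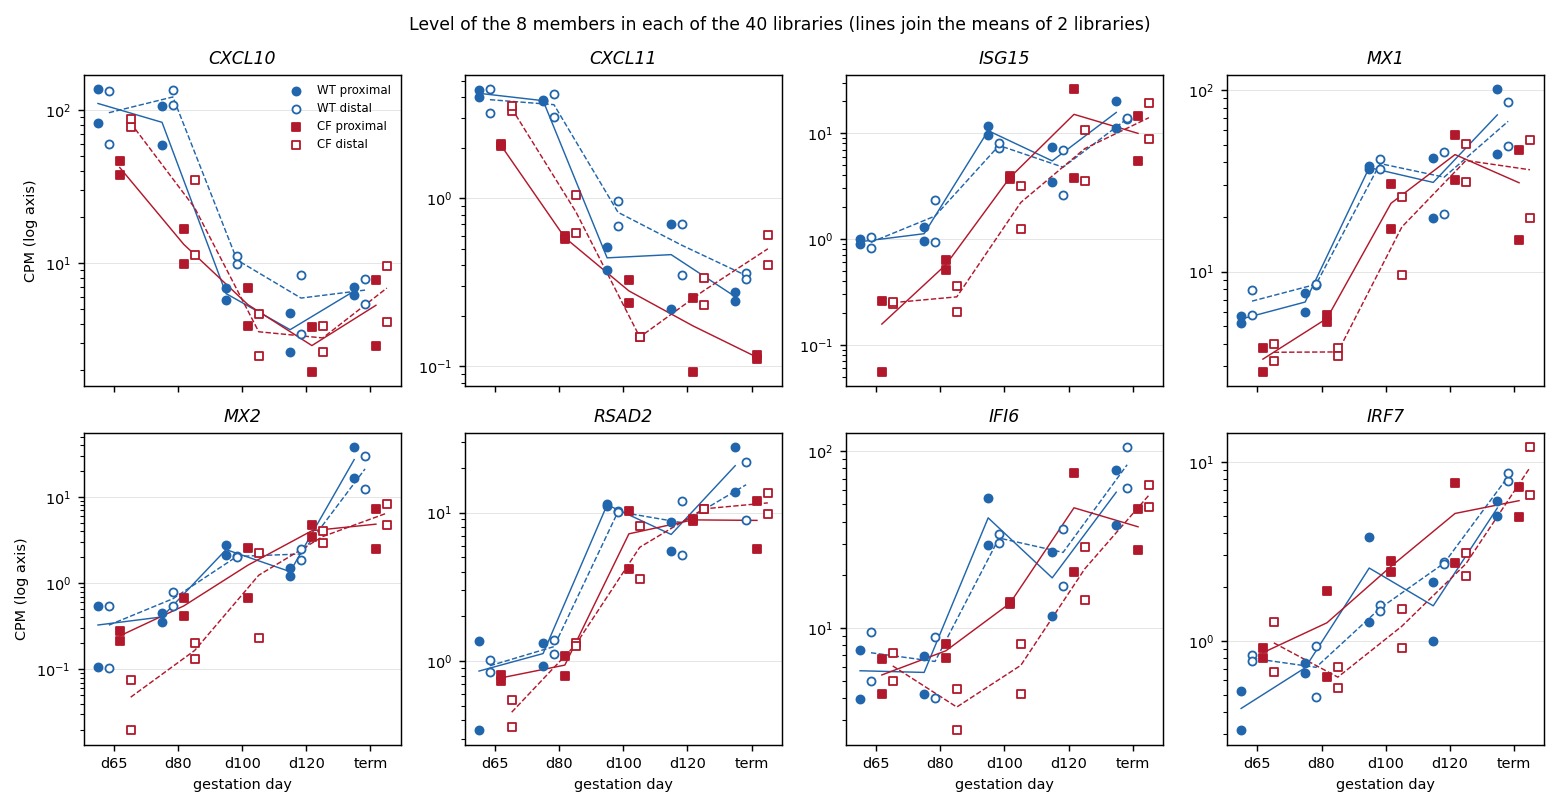
Level of each of the 8 genes (CPM, log axis) against gestation day in the 40 libraries, 1 point per library and a line through the mean of each group of 2, for WT and CF in proximal and distal lung. In WT *CXCL10* and *CXCL11* are high at days 65 and 80 and low from day 100, in CF their group means are lower at day 80 than at day 65 already, and the group means of the other 6 genes are higher at term than at day 65.

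*CXCL10* was abundant in early WT lung. In WT proximal lung the 2 libraries of each day had 82.9 and 138 CPM at day 65, 107 and 59.5 CPM at day 80, 5.78 and 6.91 CPM at day 100, 4.73 and 2.65 CPM at day 120, and 7.0 and 6.18 CPM at term. In WT distal lung they had 59.6 and 133, 108 and 136, 11.1 and 9.97, 8.42 and 3.45, and 5.46 and 7.92 CPM in the same order. Every WT library of days 65 and 80 was above every later WT library, and the 70.4-fold range over the 40 libraries was between WT proximal day 65 replicate 2 and CF proximal day 120 replicate 1.

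The fall of *CXCL10* in WT came between days 80 and 100. In the fit of the 10 WT proximal libraries its log2 fold change from day 80 to day 100 was -3.73 (SE 0.39, adjusted p = 0.00292, edgeR's quasi-likelihood test, Benjamini-Hochberg adjusted over every gene that was tested), and in WT distal lung it was -3.54 (SE 0.48, adjusted p = 0.0131). In bulk lung a lower level can stand for fewer cells of a type or for less RNA per cell, which cannot be told apart. The proximal call was kept when any 1 library was left out, with a highest adjusted p of 0.0459. The distal call was lost when any 1 of the 4 libraries of days 80 and 100 was left out, with the highest adjusted p of 0.208 and a log2 fold change of -3.46 without WT distal day 100 replicate 2. As the WT day 100 libraries may be 1 animal, each pair was also summed into 1 library, which is then assumed to vary like the other groups. *CXCL10* in proximal lung had an adjusted p of 0.0375 in that fit and in distal lung 0.192. Between days 65 and 80 *CXCL10* had log2 fold changes of -0.42 (SE 0.34) in WT proximal and 0.34 (SE 0.43) in WT distal lung, and the values of the 2 days overlapped in both.

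*CXCL11*, the other chemokine, was also higher at days 65 and 80 than from day 100 on in WT, at a lower level. In WT proximal lung its values were 4.02 and 4.42 CPM at day 65, 3.77 and 3.86 CPM at day 80, 0.510 and 0.375 CPM at day 100, 0.705 and 0.221 CPM at day 120, and 0.244 and 0.276 CPM at term. In WT distal lung they were 3.24 and 4.50, 3.04 and 4.18, 0.686 and 0.967, 0.701 and 0.350, and 0.362 and 0.333 CPM. Early and late WT libraries did not overlap. Between days 80 and 100 it fell by 3.11 on the log2 scale in WT proximal lung (SE 0.55, adjusted p = 0.0267), a call lost when any 1 of the 4 libraries of days 80 and 100 was left out (highest adjusted p 0.175, log2 fold change -2.89, without WT proximal day 100 replicate 2) or when the WT day 100 libraries were summed (0.174). In WT distal lung the log2 fold change of -2.12 (SE 0.46) had an adjusted p of 0.0846. The reads of *CXCL11* numbered 8 to 363 per library, the least of the pair.

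Over the same interval 4 of the 8 genes rose and 2, the chemokines, fell in WT proximal lung, against 1.27% of all genes tested called higher and 0.665% called lower. *ISG15*, whose product is joined to other proteins like ubiquitin and is also secreted, had 1.28 and 0.957 CPM at day 80 and 11.6 and 9.53 CPM at day 100, a log2 fold change of 3.22 (SE 0.46, adjusted p = 0.0106). *RSAD2*, which encodes viperin, a radical SAM enzyme that makes a chain-terminating nucleotide, had 1.32 and 0.927 CPM at day 80 and 11.5 and 11.1 CPM at day 100, a log2 fold change of 3.31 (SE 0.59, adjusted p = 0.0281). *IFI6*, a membrane protein of mitochondria and endoplasmic reticulum, had 6.95 and 4.25 CPM at day 80 and 29.5 and 54.5 CPM at day 100, a log2 fold change of 2.90 (SE 0.56, adjusted p = 0.0365). *MX1*, a dynamin-like GTPase that blocks the cycle of many RNA viruses, had 7.63 and 5.95 CPM at day 80 and 38.1 and 36.7 CPM at day 100, a log2 fold change of 2.45 (SE 0.44, adjusted p = 0.0278). None of these 4 genes overlapped between the 2 days. Of all genes tested, 45.3% did not overlap either. *MX2*, a related GTPase, had a log2 fold change of 2.58 (SE 0.64, adjusted p = 0.0869) and *IRF7*, the factor that amplifies type I interferon production, one of 1.83 (SE 0.62, adjusted p = 0.196), both without overlap and neither called.

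In WT distal lung 2 of the 8 genes rose between days 80 and 100 and 1 fell, against 0.75% and 0.252% of all genes tested. *MX1* had 8.47 and 8.54 CPM at day 80 and 41.9 and 36.8 CPM at day 100, a log2 fold change of 2.21 (SE 0.38, adjusted p = 0.0367), and *RSAD2* had group means of 1.25 and 10.1 CPM, a log2 fold change of 3.01 (SE 0.52, adjusted p = 0.0369). *ISG15* (2.22, SE 0.54, adjusted p = 0.113) and *IFI6* (2.33, SE 0.49, adjusted p = 0.0778) did not pass. Of the 9 calls of this interval in WT, the one of *CXCL10* in proximal lung was the only one kept when the WT day 100 libraries of a region were summed. Leaving out any 1 of the 4 libraries of days 80 and 100 ended the call of *MX1* (highest adjusted p 0.185 proximal and 0.311 distal), of *RSAD2* (0.191 and 0.346) and of *IFI6* (0.228), and leaving out WT proximal day 80 replicate 1, day 80 replicate 2 or day 100 replicate 1 ended that of *ISG15* (0.0975), each highest value without replicate 2 of day 80. The log2 fold changes without it were 2.27 and 2.21 for *MX1*, 3.07 and 2.86 for *RSAD2*, 2.58 for *IFI6* and 3.01 for *ISG15*.

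In CF lung no member was called between days 80 and 100, and 0% of all genes tested were, in proximal or in distal lung. Of the 8 genes, 3 in CF proximal and 6 in CF distal lung had an unadjusted p under 0.05 in edgeR, as did 3.92% and 4.04% of all genes tested. DESeq2, another count model, called 1 and 5 members, and 0.701% and 0.766% of all genes. The log2 fold changes still had the same sign as in WT. *RSAD2* had 0.792 and 1.09 CPM at day 80 and 10.2 and 4.18 CPM at day 100 in CF proximal lung (log2 fold change 2.97, SE 0.60), and *CXCL10* had 11.3 and 34.7 CPM at day 80 and 2.50 and 4.65 CPM at day 100 in CF distal lung (log2 fold change -2.69, SE 0.58). *ISG15* had 0.361 and 0.206 CPM at day 80 and 3.19 and 1.24 CPM at day 100 in CF distal lung (log2 fold change 2.94, SE 0.70).

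The neighbouring intervals held no call. Between days 65 and 80 no member passed in the 4 series, where 0.011% of all genes passed in WT proximal lung, 0.0164% in WT distal and 0% in CF lung. Of the 32 tests 5 had an unadjusted p under 0.05 in edgeR, all in CF, against 7.07% of the tests of all genes over the 4 series, and DESeq2 called 3 in CF distal lung, against 1.86% of all genes. There *CXCL10* went from 77.0 and 87.7 CPM at day 65 to 11.3 and 34.7 CPM at day 80 (log2 fold change -1.83, SE 0.56, adjusted p = 0.282) and *CXCL11* from 3.31 and 3.55 to 0.622 and 1.05 CPM (log2 fold change -2.01, SE 0.47, adjusted p = 0.282), both without overlap. Of all genes tested, 65.3% did not overlap there. The third call of DESeq2 was *RSAD2*, which was higher at day 80 (log2 fold change 1.54, adjusted p = 0.0444 in DESeq2). Between days 100 and 120 no member passed either, against 2.67% of all genes in WT proximal, 2.49% in WT distal, 0.0203% in CF proximal and 0.928% in CF distal lung. Of those 32 tests 6 had an unadjusted p under 0.05, against 13.1% over all genes, and DESeq2 called 1 (5.83% over all genes), that of *IFI6* in CF distal lung, with 8.07 and 4.22 CPM at day 100 and 14.4 and 28.9 CPM at day 120 (log2 fold change 1.83, SE 0.44, adjusted p = 0.0968).

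**Figure D2:**
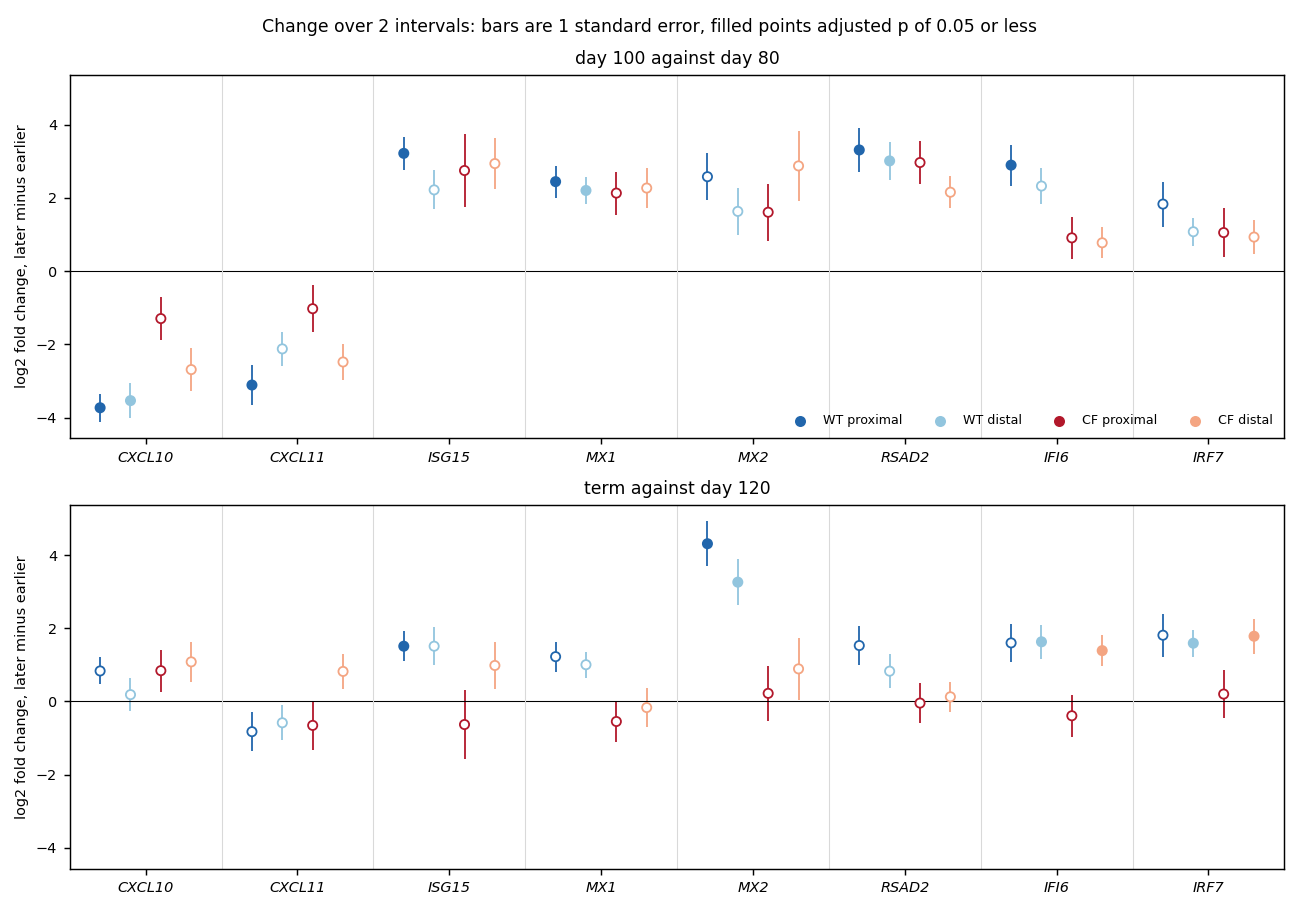
Log2 fold change of each gene (later minus earlier day, bars of 1 standard error) for day 100 against day 80 above and term against day 120 below, in the 4 series of genotype and region, with filled points for adjusted p of 0.05 or less. In the upper panel *CXCL10* and *CXCL11* lie below 0 and the other 6 genes above 0 in all 4 series, and in the lower panel the values of *MX2* in WT lie highest.

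The mean of days 100 and 120 was also set against the mean of days 65 and 80 in each series. This boundary was chosen after the levels had been seen, so its p-values are not independent evidence of it. Not every gene changed most at this boundary: in CF proximal lung *CXCL10* had group means of 42.1, 13.3 and 5.38 CPM at days 65, 80 and 100, and in CF distal lung *IFI6* had 3.56, 6.14 and 21.6 CPM at days 80, 100 and 120. All 8 genes passed in each of the 4 series of genotype and region, 6 higher and 2 lower, against 3.76% of genes called higher and 3.18% lower in WT proximal lung, 3.18% and 2.93% in CF proximal, 7.94% and 5.16% in WT distal, and 7.87% and 5.36% in CF distal. The early and late libraries did not overlap in 29 of the 32 series of a gene, against 20% of all genes tested in WT proximal, 10.1% in CF proximal, 22.9% in WT distal and 14.5% in CF distal lung, the exceptions being *MX2* in CF proximal lung and *IFI6* and *IRF7* in CF distal lung.

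*CXCL10* fell by 4.31 on the log2 scale in WT proximal lung (SE 0.40, mean 96.8 to 5.02 CPM), 2.58 in CF proximal (SE 0.37, 27.7 to 4.14 CPM), 3.76 in WT distal (SE 0.43, 109 to 8.23 CPM) and 3.65 in CF distal lung (SE 0.43, 52.7 to 3.42 CPM). *CXCL11* fell by 3.14, 2.30, 2.49 and 3.01 in the same order (SE 0.34 to 0.42). The adjusted p of the chemokines lay between 3.03e-05 and 0.00459, and leaving out any 1 library kept all 8 calls.

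*ISG15* rose by 2.89 in WT proximal, 4.65 in CF proximal, 2.31 in WT distal and 3.91 in CF distal lung, and *MX1* by 2.48, 2.93, 2.26 and 2.92. *RSAD2* had the most even rise, 3.19, 3.23, 3.13 and 3.38, with SE 0.37 to 0.45. *MX2* rose by 2.33, 2.81, 2.21 and 4.54 and *IFI6* by 2.33, 2.02, 2.13 and 1.33. *IRF7* had rises of 1.88, 1.82, 1.45 and 1.23. All calls of *MX1* and *RSAD2* were kept without any 1 library.

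Some of these calls rested on single libraries. *IRF7* in WT proximal lung was lost without WT proximal day 65 replicate 1 or 2, day 80 replicate 1 or 2, day 100 replicate 2, day 120 replicate 1 or CF proximal day 65 replicate 2 (highest adjusted p 0.167, log2 fold change 1.38, without WT day 100 replicate 2). In CF proximal lung it was lost without day 65 replicate 1 or 2, day 80 replicate 2, day 100 replicate 1 or 2 or day 120 replicate 2 (highest 0.158, log2 fold change 1.52), and in CF distal lung without day 65 replicate 2, day 80 replicate 1 or 2 or day 100 replicate 1 (highest 0.0944, log2 fold change 1.01). *MX2* was lost in WT proximal lung without day 65 replicate 1, day 80 replicate 1 or 2, day 100 replicate 1 or day 120 replicate 2 (highest 0.0928, log2 fold change 2.25), in WT distal lung without day 65 replicate 1 or any library of days 80, 100 and 120 (highest 0.119, log2 fold change 2.08), and in CF proximal lung without day 65 replicate 2 (0.0514, log2 fold change 2.72). *IFI6* was lost in CF proximal lung without day 65 replicate 2, day 80 replicate 1 or 2 (highest 0.0796, log2 fold change 1.87) and in CF distal lung without day 65 replicate 2, day 80 replicate 1, day 100 replicate 1 or day 120 replicate 2 (highest 0.126, log2 fold change 1.04). *ISG15* in WT proximal lung reached 0.05003, just past the limit, without day 80 replicate 2 (log2 fold change 2.80). With the WT day 100 libraries summed, *MX2* in both WT regions and *IRF7* in WT proximal lung did not pass. The same 3 calls were lost with the bias-adjusted quasi-likelihood test, a later form of edgeR's test.

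The change over the same days was not called different between the genotypes for any member. Of 16 tests of the difference (CF minus WT), 0 passed in edgeR's quasi-likelihood test and 4 had an unadjusted p under 0.05, against 4.76% over all genes. DESeq2 called none. The value with the smallest adjusted p was that of *CXCL10* in proximal lung, whose fall was 1.73 smaller in CF (SE 0.50, adjusted p = 0.770). Of all genes tested, 0% passed in either region.

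Next, CF lung was compared with WT lung at each day. Of 80 tests, 5 passed, all with the lower level in CF. DESeq2 called 13 of the 80, and 10.8% over all genes. The 2 libraries of CF lay below the 2 of WT in 33 of the 80 tests and above them in 6, where over all genes tested they lay below in 24.6% of the tests and above in 27.7%. An unadjusted p under 0.05 was found in 23 of the 80 and in 18.9% of the tests of all genes. In the comparisons without a called member, 0.167% of all genes tested passed in proximal lung at day 65 and 0.383% at day 100, and 5.23% in distal lung at day 65, in either direction. There 2, 1 and 2 of the 8 members had an unadjusted p under 0.05 in edgeR (12.4%, 13.0% and 21.2% of all genes), and DESeq2 called 1, 0 and 2 (4.33%, 4.77% and 11.5%).

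**Figure D3:**
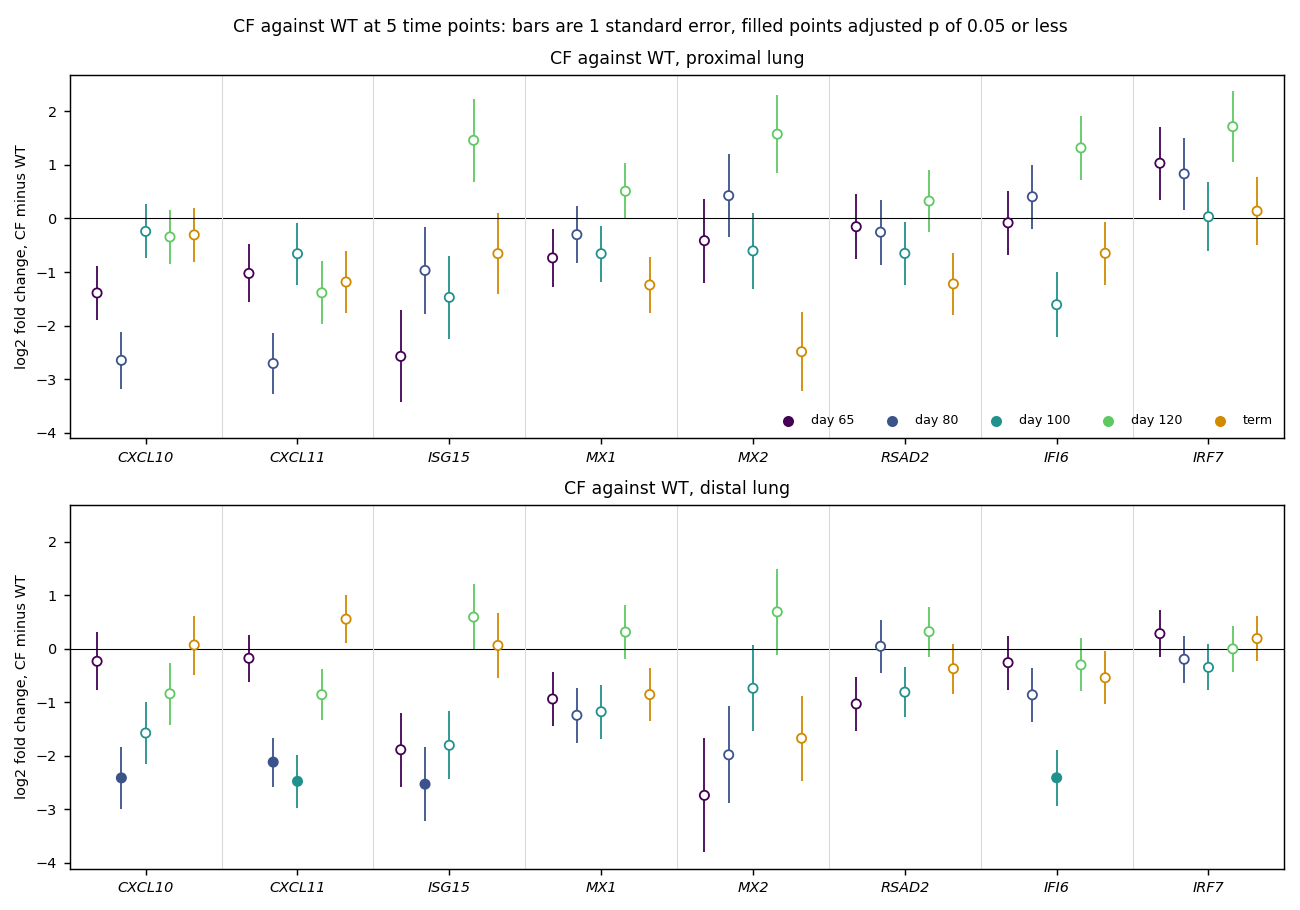
Log2 fold change of CF against WT (CF minus WT, bars of 1 standard error) for each gene at each of the 5 time points in proximal and distal lung, with filled points for adjusted p of 0.05 or less. The 5 filled points are at distal days 80 and 100, all below 0.

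At day 80 in distal lung 3 of the 8 genes were lower in CF, against 1.81% of all genes tested. *CXCL10* had 108 and 136 CPM in WT and 11.3 and 34.7 CPM in CF, a log2 fold change of -2.41 (SE 0.57, adjusted p = 0.0257). *CXCL11* had 3.04 and 4.18 CPM in WT and 0.622 and 1.05 CPM in CF, a log2 fold change of -2.12 (SE 0.46, adjusted p = 0.0166). *ISG15* had 2.35 and 0.939 CPM in WT and 0.361 and 0.206 CPM in CF, a log2 fold change of -2.53 (SE 0.69, adjusted p = 0.0447). The genotypes did not overlap for any of the 3 genes. Of all genes tested, 65.3% did not overlap either. The call of *CXCL10* was lost without WT day 80 replicate 1, WT day 80 replicate 2 or CF day 80 replicate 1 (highest adjusted p 0.214, log2 fold change -1.83, without the last), and that of *CXCL11* without any of the 4 day 80 libraries (highest 0.185, log2 fold change -1.80, without CF day 80 replicate 1). That of *ISG15* was lost without any of 8 libraries, the WT libraries of days 65, 80 and 100 and the CF libraries of day 80 (highest 0.292, log2 fold change -1.74, without WT day 80 replicate 1), and also with the bias-adjusted quasi-likelihood test, a later form of edgeR's test (0.133, the highest of these settings), after thinning all libraries to equal depth, with the WT day 100 libraries summed and in 1 fit over the 40 libraries.

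The chemokines differed in the same direction in proximal lung at day 80, without a call. *CXCL10* had 107 and 59.5 CPM in WT and 9.88 and 16.7 CPM in CF (log2 fold change -2.65, SE 0.53, adjusted p = 0.0667), and *CXCL11* had 3.77 and 3.86 CPM in WT and 0.572 and 0.596 CPM in CF (log2 fold change -2.71, SE 0.58, adjusted p = 0.0855). Neither gene overlapped, nor did 48% of all genes tested. In that comparison 0.0885% of all genes tested passed in either direction, none of them a member. In edgeR 2 of the 8 members had an unadjusted p under 0.05 (10.6% of all genes). DESeq2 called both chemokines and 3.03% of all genes, and both were also called in 1 fit over the 40 libraries (adjusted p = 0.0170 for *CXCL10* and 0.00406 for *CXCL11* in edgeR). The bias-adjusted quasi-likelihood test called *CXCL11* (adjusted p = 0.0331). At day 65 *CXCL10* had 82.9 and 138 CPM in WT and 37.7 and 46.6 CPM in CF proximal lung (log2 fold change -1.39, SE 0.50, adjusted p = 0.275), and in distal lung the genotypes overlapped at 59.6 and 133 CPM in WT and 77.0 and 87.7 CPM in CF.

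At day 100 in distal lung 2 of the 8 genes were lower in CF, against 1.34% of all genes tested. *IFI6* had 30.4 and 34.2 CPM in WT and 8.07 and 4.22 CPM in CF, a log2 fold change of -2.41 (SE 0.52, adjusted p = 0.0172). *CXCL11* had 0.686 and 0.967 CPM in WT and 0.150 and 0.149 CPM in CF, a log2 fold change of -2.48 (SE 0.49, adjusted p = 0.0115). DESeq2 called these and 2 more, *ISG15* (-1.83, adjusted p = 0.0301) and *CXCL10* (-1.60, adjusted p = 0.0340), and 12.4% of all genes. Both calls of edgeR were lost without any 1 of the 4 day 100 libraries (*IFI6* at most 0.193, log2 fold change -2.02, without CF day 100 replicate 2, and *CXCL11* at most 0.128, log2 fold change -2.20, without WT day 100 replicate 2), and both were lost with the WT day 100 libraries summed (0.110 and 0.0809). Every member had its CF libraries below its WT libraries at this day in distal lung except *MX2* and *IRF7*, which overlapped, and 32.7% of all genes tested had their CF libraries below.

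Markers and library measures differed between the genotypes in the same distal samples. At day 80 the summed level of 12 lung epithelial markers was 1303 to 1461 CPM in CF and 1600 to 1912 CPM in WT, and that of 8 mesenchymal markers was 8426 to 8843 CPM in CF and 6432 to 7050 CPM in WT. The sum of 6 endothelial markers was 1100 to 1111 CPM in CF and 1018 to 1043 CPM in WT. That of 8 plasmacytoid dendritic and B cell markers was 199 to 210 and 173 to 187 CPM. That of 4 erythroid markers was 11.2 to 12.6 and 13.4 to 15.2 CPM. That of 3 liver markers was 8.17 to 9.84 and 3.76 to 7.99 CPM, and 9.45 to 10.5 and 12.9 to 13.8 CPM at day 100. Of all genes tested, 65.3% did not overlap between the genotypes at day 80 and 70.2% at day 100. At day 100 the epithelial sum was 2174 to 2290 CPM in CF and 2556 to 2565 CPM in WT, and that of 13 monocyte and macrophage markers was 114 to 126 CPM in CF and 159 to 165 CPM in WT. Mitochondrial genes held 1.8% to 1.89% of the counts in the CF distal libraries of the 2 days and 2.06% to 2.33% in the WT ones. At day 100 the sum of 4 erythroid markers was 14.2 to 16.4 CPM in CF and 28.5 to 29.3 CPM in WT, that of 7 neutrophil markers 2.02 to 2.76 and 3.75 to 4.63 CPM, and that of 12 T and natural killer cell markers, higher in CF, 30.1 to 33.1 and 26.5 to 29.6 CPM. The part of these differences in the levels of the 8 genes was not tested.

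Averaged over days 65 to 120, which uses 16 libraries per region, 2 of the 8 genes were lower in CF proximal lung (6.77% of all genes tested were called lower) and 5 were lower in CF distal lung (13.6%). *CXCL10* was lower by a log2 fold change of -1.16 in proximal lung (SE 0.25, adjusted p = 0.00626) and -1.27 in distal lung (SE 0.28, adjusted p = 0.00339). *CXCL11* had -1.45 (SE 0.28, adjusted p = 0.00331) and -1.41 (SE 0.23, adjusted p = 4.13e-04), and the latter was the 1 value past the stricter limits that the study set for differentially expressed genes, an adjusted p of at most 0.001 and a change of 0.58 or more in log2 size, which 6.86% of all genes met in that comparison. In distal lung *ISG15* (-1.41, SE 0.33, adjusted p = 0.00452) and *IFI6* (-0.96, SE 0.25, adjusted p = 0.00943) were lower too. These 6 calls were kept without any 1 library. *MX1* in distal lung (-0.76, SE 0.25, adjusted p = 0.0320) was lost without any of 10 libraries, WT day 65 replicate 2, day 80 replicates 1 and 2, day 100 replicate 1 and day 120 replicate 1 and CF day 65 replicate 1, day 80 replicates 1 and 2, day 100 replicate 2 and day 120 replicate 1 (highest 0.0915, log2 fold change -0.60, without WT day 120 replicate 1), and with the WT day 100 libraries summed (0.0541). *MX2* in distal lung (-1.19, SE 0.45, adjusted p = 0.0547) was not called, but passed with DESeq2 (0.0123), with RLE size factors, another scaling of library totals (0.0488), and without the filter on low counts (0.0475). *RSAD2* (-0.37, SE 0.24) and *IRF7* (-0.065, SE 0.22) did not pass in distal lung, nor did *IRF7* in proximal lung at 0.90 (SE 0.33, adjusted p = 0.0708), which DESeq2 called higher in CF (0.88, adjusted p = 0.0339). The average does not stand for each day. At day 120 alone in distal lung 4 of the 8 genes had a lower and 4 a higher level in CF, none called. There *ISG15* had group means of 7.15 CPM in CF and 4.76 CPM in WT, *MX1* 41.0 and 33.1 CPM, and *IFI6* 21.6 and 26.8 CPM.

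At day 120 the proximal CF libraries lay apart from each other. *ISG15* had 3.80 CPM in CF proximal day 120 replicate 1 and 26.3 CPM in replicate 2, beside 7.46 and 3.48 CPM in WT. *IFI6* had 20.7 and 75.0 CPM in CF and 26.8 and 11.7 CPM in WT, and *IRF7* had 2.72 and 7.59 CPM in CF and 2.14 and 0.994 CPM in WT. The higher value of each was in replicate 2, and the same animal was the higher of its pair in distal lung for the 3 genes. Replicate 2 also had the lowest mitochondrial share of the 40 libraries, 0.942% of its counts against 1.92% in replicate 1, and a summed level of 12 lung epithelial markers of 21462 CPM against 7378 CPM. The counts of this pair differed more than those of any other of the 20 groups, with a chi-square per degree of freedom of 1852. The part of these differences in the levels of the 8 genes was not tested. No member was called at this day in proximal or in distal lung (edgeR background 1.35% and 4.38% in either direction, 4 and 0 members with an unadjusted p under 0.05 against 17.1% and 20.1% of all genes, none called by DESeq2).

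Between day 120 and term 2 of the 8 genes rose in WT proximal lung, against 13.5% of all genes tested called higher. *MX2* had 1.20 and 1.52 CPM at day 120 and 37.9 and 16.5 CPM at term, a log2 fold change of 4.31 (SE 0.61, adjusted p = 0.00159), kept without any 1 library. *ISG15* had 7.46 and 3.48 CPM at day 120 and 20.3 and 11.1 CPM at term, a log2 fold change of 1.51 (SE 0.41, adjusted p = 0.0272), lost without WT day 120 replicate 2 or WT term replicate 1 (highest 0.158, log2 fold change 1.03) and in 1 fit over the 40 libraries (0.215). Neither gene overlapped between the days, nor did 67% of all genes tested. *MX1* (1.22, SE 0.41, adjusted p = 0.0564), *RSAD2* (1.53, SE 0.53, adjusted p = 0.0649), *IFI6* (1.6, SE 0.52, adjusted p = 0.0516) and *IRF7* (1.81, SE 0.59, adjusted p = 0.0515) did not pass. These 4 genes passed with DESeq2 (0.00496 to 0.0183), which called 30% of all genes there, with the bias-adjusted quasi-likelihood test (0.0184 to 0.0461) and without the filter on low counts (0.0281 to 0.0460).

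In WT distal lung 3 of the 8 genes rose, again against 13.5% of all genes tested. *MX2* had 2.52 and 1.85 CPM at day 120 and 30.2 and 12.2 CPM at term, a log2 fold change of 3.26 (SE 0.63, adjusted p = 0.00755), lost without WT day 120 replicate 1 or 2 (highest 0.0586, log2 fold change 3.04). *IFI6* had 36.2 and 17.3 CPM at day 120 and 105 and 62.4 CPM at term (log2 fold change 1.63, SE 0.47, adjusted p = 0.0346), lost without day 100 replicate 1 or 2, day 120 replicate 1 or 2 or term replicate 1 (highest 0.175, log2 fold change 1.18), with the WT day 100 libraries summed and in 1 fit over the 40 libraries (0.0665, the higher). *IRF7* had 2.76 and 2.67 CPM at day 120 and 7.87 and 8.73 CPM at term (log2 fold change 1.59, SE 0.37, adjusted p = 0.0147), lost without day 120 replicate 1 or 2 or term replicate 2 (highest 0.0828, log2 fold change 1.62) and in 1 fit over the 40 libraries (0.0587). *ISG15* in WT distal lung was called with DESeq2 (0.0153), the bias-adjusted quasi-likelihood test (0.0226) and after thinning (0.0465), and *MX1* with DESeq2 (0.0254), which called 32.1% of all genes there.

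In CF distal lung 2 of the 8 genes rose between day 120 and term, against 11.5% of all genes tested. *IFI6* had 14.4 and 28.9 CPM at day 120 and 64.4 and 48.5 CPM at term (log2 fold change 1.39, SE 0.43, adjusted p = 0.0455), a call lost without any CF distal library other than day 120 replicate 2 (highest 0.230, log2 fold change 0.97, without day 120 replicate 1), and also in 1 fit over the 40 libraries. *IRF7* had 2.31 and 3.08 CPM at day 120 and 6.52 and 12.1 CPM at term (log2 fold change 1.78, SE 0.47, adjusted p = 0.0290), lost without any library of days 80 and 100, day 120 replicate 1 or term replicate 2 (highest 0.146, log2 fold change 1.6). In CF proximal lung no member passed in edgeR, none had an unadjusted p under 0.05, DESeq2 called none, and 0.356% of all genes passed in either direction.

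*MX2* was the member whose change to term lay furthest apart between the genotypes. In CF proximal lung it had 3.41 and 4.71 CPM at day 120 and 7.17 and 2.52 CPM at term, and the difference of the changes (CF minus WT) was -4.06 on the log2 scale (SE 1.03, adjusted p = 0.0665 in edgeR's quasi-likelihood test). At term itself *MX2* had 37.9 and 16.5 CPM in WT and 7.17 and 2.52 CPM in CF proximal lung (log2 fold change -2.49, SE 0.74, adjusted p = 0.0638), and 30.2 and 12.2 CPM in WT and 8.26 and 4.75 CPM in CF distal lung (log2 fold change -1.67, SE 0.80, adjusted p = 0.172), without overlap in either region. Of all genes tested, 54.3% in proximal and 49.1% in distal lung did not overlap there. With the bias-adjusted quasi-likelihood test *MX2* at term was called lower in CF in proximal (0.0179) and distal lung (0.0355), and it was called in proximal lung with DESeq2 (0.00517) and after thinning (0.0432). The difference of the changes passed in proximal lung with DESeq2 (0.00193), the bias-adjusted test (0.0334) and thinning (0.0473). Over all 64 tests of a difference between genotypes in the change between consecutive days, 0 passed in edgeR, 15 had an unadjusted p under 0.05 (7.76% over all genes) and DESeq2 called 1 (2.99%), that of *MX2*. Of all genes tested 0% passed for the changes from day 65 to 80, from day 80 to 100 in proximal lung and from day 100 to 120, 0.00996% from day 80 to 100 in distal lung, and 1.78% and 9.31% from day 120 to term in proximal and distal lung. At term 6.09% of all genes tested differed between CF and WT in proximal lung and 15.2% in distal lung, with no member called in either, 2 and 0 members with an unadjusted p under 0.05 (19.9% and 30.6% of all genes), and 1 and 0 called by DESeq2 (13.6% and 23.7%).

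Markers of several cell types moved with the term samples. The summed level of 13 monocyte and macrophage markers was 115 to 243 CPM in the WT groups and 98.5 to 217 CPM in the CF groups before term, and 1105 to 2258 CPM in the WT groups and 343 to 560 CPM in the CF groups at term. Of these 13 genes, 12 rose between day 120 and term in each WT region, where 13.5% of all genes tested were called higher. The summed level of 7 neutrophil markers was 0.959 to 24.8 CPM in WT and 1.11 to 14.6 CPM in CF before term, and 63.5 to 253 CPM in WT and 12.4 to 146 CPM in CF at term. Between day 120 and term in WT the summed level of 12 lung epithelial markers went from 3713 to 5812 CPM up to 19089 to 29440 CPM, and 9 of the 12 genes rose in proximal and 7 in distal lung. That of 4 erythroid markers went from 70.1 to 119 CPM down to 0.821 to 2.98 CPM, and all 4 fell in both regions. That of 8 mesenchymal markers went from 7928 to 10938 CPM down to 3246 to 5918 CPM, and 4 fell in proximal and 3 in distal lung. Of all genes tested, 11.1% were called lower in WT proximal and 12.3% in WT distal lung. The part of these cell types in the term levels of the 8 genes was not tested.

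Over the earlier boundary at days 80 and 100, 3 of the 12 lung epithelial markers rose in WT proximal, 5 in CF proximal and 6 in each of WT distal and CF distal lung, where 3.76%, 3.18%, 7.94% and 7.87% of all genes tested were called higher. Their summed level was 932 to 2041 CPM at days 65 and 80 and 2529 to 5812 CPM at days 100 and 120 in WT, and 683 to 2280 CPM and 2174 to 21462 CPM in CF. Of 6 endothelial markers 2, 3, 4 and 5 rose in the same order of series. The part of these cells in the change of the 8 genes was not tested. At that boundary, of 12 T and natural killer cell markers none rose in any of the 4 series, and 1 fell in WT proximal, WT distal and CF distal lung, where 3.18%, 5.16% and 5.36% of all genes tested were called lower.

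Distal and proximal lung of the same animals, by the labels, were compared with the animal as a block. Deviations of the paired libraries from their group means had r over 0.1 in 7 of 10 pairs. The r was negative in CF at days 65 and 80 (-0.474 and -0.341) and in WT at day 100 (-0.158). Of 80 tests 0 passed in edgeR, 18 had an unadjusted p under 0.05, against 4.97% over all genes, and DESeq2 called 3, against 0.202% (*MX2* and *IFI6* at CF day 80 and *IFI6* at CF day 100), while 0% to 0.0193% of all genes passed in either direction. Log2 fold changes ran from -2.40 to 2.10, with SE 0.19 to 0.58. *CXCL10* in CF lung at day 65 had 37.7 and 46.6 CPM proximally and 77.0 and 87.7 CPM distally (log2 fold change 0.97, SE 0.26, adjusted p = 0.422). *IFI6* in CF lung at day 100 had 13.6 and 14.0 CPM proximally and 8.07 and 4.22 CPM distally (log2 fold change -1.24, SE 0.26, adjusted p = 1). Neither pair overlapped, but the share of all genes without overlap was not computed for distal against proximal lung. In the difference of this contrast between CF and WT, 0 of 40 tests passed in edgeR, with 0% to 0.00963% of all genes passing. In edgeR 13 had an unadjusted p under 0.05 (3.77% over all genes), and DESeq2 called none.

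The 8 genes fell into the chemokine pair and the other 6 by their course over the libraries. Across the 40 libraries, which include 2 regions of each animal and differ in depth, Pearson's r of log2 CPM was 0.932 between *CXCL10* and *CXCL11*. Among the other 6 genes it was 0.769 to 0.954, highest for *ISG15* with *MX1* and *MX1* with *RSAD2*, and between the chemokines and the other 6 it was -0.587 to -0.800. Of 14861 genes with an average log2 CPM of at least 0, those most like *CXCL10* were *RRM1* (r = 0.911), *BCAT1* (0.888), *LOC101122475* (0.872), *UNG* (0.871) and *IGFBP2* (0.868). *RRM1* encodes the large subunit of ribonucleotide reductase and *UNG* a uracil DNA glycosylase. Those most like *ISG15* were *OAS1* (0.963), *GSTA1-1* (0.934), *LOC101117112* (0.920), *CLDN18* (0.910) and *IFIH1* (0.910). *OAS1* and *IFIH1* are themselves interferon-induced, and *CLDN18* encodes a tight junction protein of alveolar epithelium.

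**Figure D4:**
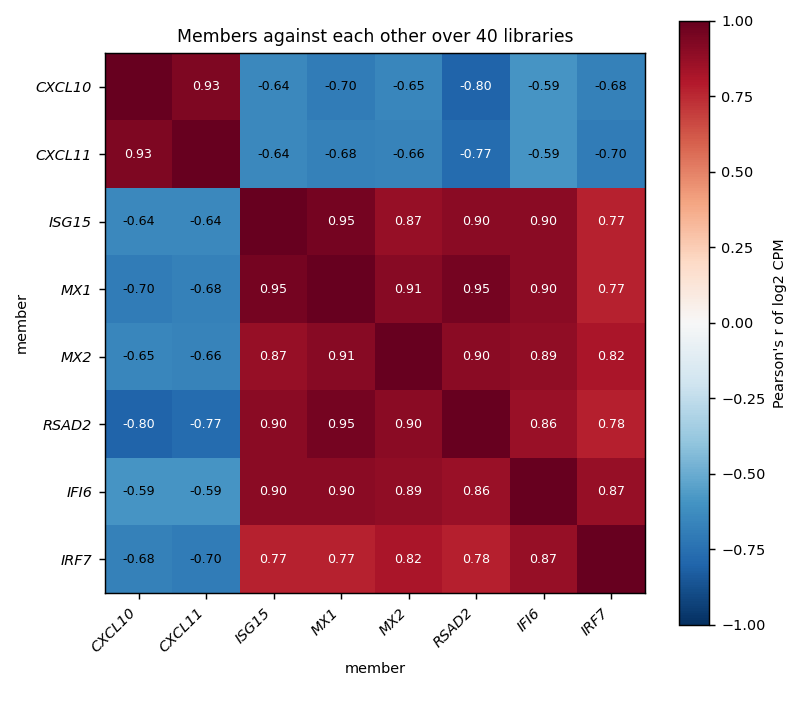
Pearson correlation of log2 CPM between each pair of the 8 genes over the 40 libraries. The chemokine pair correlates positively within itself and negatively with the other 6 genes.

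The rest of the interferon pathway was read from 7 lists of 101 further genes in the table. For days 100 and 120 against days 65 and 80, the 50 tested interferon-induced effectors outside the members had 15 higher and 0 lower in WT proximal lung, 18 and 0 in CF proximal, 19 and 0 in WT distal, and 23 and 0 in CF distal lung. Of all genes tested, 3.76%, 3.18%, 7.94% and 7.87% were called higher in these series. The median log2 fold changes of the effectors were 0.57, 0.76, 0.49 and 0.60, beside medians over all genes tested between -0.01 and 0.02. The largest rises included *OAS1*, which senses double-stranded RNA, with 2.57, 3.22, 2.16 and 3.25 in the same order, and *TNFSF10*, the death ligand TRAIL, with 2.74, 2.6, 2.99 and 3.01. *OAS2* rose by 3.17, 2.76 and 3.24 in WT proximal, CF proximal and CF distal lung. Of 10 transcription factors of the pathway 2, 3, 3 and 5 were higher, and 1 was lower in WT distal (*IRF5*, -0.92) and CF distal lung (*IRF5*, -0.63).

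*CXCL9*, the third ligand of CXCR3 and a gene induced mainly by interferon gamma, was also lower in CF. Averaged over days 65 to 120 it was lower in CF by a log2 fold change of -1.40 in proximal lung (SE 0.28, adjusted p = 0.00331) and -2.04 in distal lung (SE 0.32, adjusted p = 2.76e-04), and at day 80 in distal lung by -3.11 (SE 0.66, adjusted p = 0.0159). Over the boundary at days 80 and 100 it passed in WT distal lung alone of the 4 series, at -1.42 (SE 0.44, adjusted p = 0.0480). *DPP4*, the peptidase that trims these chemokines, was lower in CF distal lung at day 80 (-1.16, SE 0.29, adjusted p = 0.0327) and higher at term (1.10, SE 0.29, adjusted p = 0.0205). The mean level of *CXCR3* in the 20 groups was 0.0482 to 0.571 CPM.

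Other members of the pathway did not share 1 direction in CF. Averaged over days 65 to 120, 4 of 50 effectors were higher and 10 lower in CF distal lung, and 2 were higher and 6 lower in proximal lung, where 18.6% of all genes tested were called higher and 13.6% lower in distal lung, and 13.8% and 6.77% in proximal lung. *IFIT2*, which blocks translation of foreign RNA, was lower by -1.06 and -0.98 in proximal and distal lung (SE 0.14 and 0.13, adjusted p = 3.57e-04 and 7.11e-05). *IRF9*, the DNA-binding part of the type I interferon complex, was higher by 0.72 and 0.66 (SE 0.15 and 0.10, adjusted p = 0.00540 and 2.70e-04), and *TYK2*, a kinase of the receptor, was higher by 0.59 in distal lung (SE 0.072, adjusted p = 3.30e-05). Between day 120 and term 29 of 50 effectors rose and 1 fell in WT proximal lung, 26 rose and 1 fell in WT distal lung, 9 of 49 rose and 2 fell in CF distal lung, and 1 of 49 rose in CF proximal lung. Of all genes tested, 13.5% were called higher in each WT region and 11.5% in CF distal lung, and 0.356% passed in either direction in CF proximal lung.

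The ligand genes could be read only in part. The table held 3 of the 10 interferon ligands sought by symbol (*IFNG*, *IFNE* and *IFNK*), and their summed level was at most 0.424 CPM in any group. *IFNG* had a mean of 0 CPM in 14 of the 20 groups and at most 0.167 CPM. The receptor genes were present throughout, with group means of 80.2 to 176 CPM for *IFNAR1* and 45.3 to 154 CPM for *IFNGR1*.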

How the data were processed

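Bulk RNA-seq of WT and CF sheep lung (40 libraries, 100 bp paired reads, cDNA primed with oligo dT) had been aligned by the authors with STAR to Oar_v4.0 and counted per gene with featureCounts 1.6.3. The submitters' notes give STAR 2.6 and the study's methods a later release, so the release used is unsure, and the annotation release and strand setting were not given in the sources used here. The deposited values were raw counts per gene and library, and they were used as deposited. Day 50 samples were not analysed here. The list of members and the pathway and marker lists were chosen with earlier results of these data known.

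Genes were filtered with filterByExpr (count minimum 10, total minimum 15), scaled by TMM and tested with edgeR 4.0.16 (R 4.3.3) by the quasi-likelihood test, with 1 mean per condition and Benjamini-Hochberg adjustment over all genes tested. A gene was called at an adjusted p of 0.05 or less. CF was set against WT in the 20 libraries of a region, days against each other in the 10 libraries of a genotype and region, and distal against proximal lung in all 40 libraries with the animal as a block. CPM values used TMM factors over the 40 libraries. All 8 members were named in the text, and of the other pathway genes those called, up to 3 with the largest log2 fold change in each direction per comparison, of which a selection is printed. For likeness, genes were ranked by Pearson correlation of log2 CPM (prior count 2).

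Same-numbered CF and WT libraries of a day did not deviate together (proximal r of their deviations -0.251 to 0.215, distal r -0.0092 to 0.403), so replicate numbers did not pair them. Proximal and distal libraries of 1 animal were paired by the labels (r -0.474 to 0.853, over 0.1 in 7 of 10 pairs). Replicates of a group differed beyond sampling noise in all groups. DESeq2 1.42.0, size factors, the filter, equal depth, summed WT day 100 libraries and leaving out each library were tried as alternatives. The fitting steps were tested on simulated counts. Promoter motifs were not analysed here.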

Additional observations from a re-analysis of the deposited data

How the results depend on the processing

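Over the 60 calls of a gene in a comparison and 1481 settings tried over them, 1319 kept the call, 162 kept the direction without passing, and none was reversed. The limits of the study (adjusted p of 0.001 and log2 fold change of 0.58) were also set on the fits used here, which differ from the study's own. The calls then went from 5 to 0 for CF against WT and from 7 to 1 for CF against WT averaged over days 65 to 120. They went from 16 to 0 for consecutive days and from 32 to 15 for days 100 and 120 against days 65 and 80. DESeq2 gave 13 calls for CF against WT, 36 for consecutive days, 3 for distal against proximal lung and 1 for the difference between genotypes in change over time, of 80, 128, 80 and 64 tests, where it called 10.8%, 9.07%, 0.202% and 2.99% over all genes. That last count was also 1 with the bias-adjusted quasi-likelihood and 1 after thinning to equal depth. With the WT day 100 libraries summed, there were 2 calls of CF against WT, and 8 of consecutive days, of which 7 were among the 16. The cause of these differences was not tested. Without a filter on low counts, 22 calls of consecutive days were made, and with 1 fit over 40 libraries 13.

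Leaving out 1 library at a time gave 2 to 12 calls for CF against WT, with 2 without WT distal day 80 replicate 1 and 12 without CF proximal day 120 replicate 1. It gave 6 to 8 for the average over days 65 to 120, 11 to 19 for consecutive days, 0 to 1 for distal against proximal lung, 0 to 5 for the difference between genotypes in change over time, with 5 without CF proximal day 120 replicate 1, 28 to 32 for days 100 and 120 against days 65 and 80, and 0 to 1 for each of the differences between genotypes in that contrast and in distal against proximal lung. Distal against proximal lung was refitted 12 times.

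With the replicate number as a block there were 5 calls for CF against WT and 8 for the average (*MX2* in distal lung passing with it, adjusted p = 0.0223 in edgeR). Consecutive days had 15 calls, without *IFI6* in CF distal lung at term and without *IFI6* and *RSAD2* in WT proximal lung from day 80 to 100. *MX1* in WT proximal and *ISG15* in WT distal lung at term passed with it. Days 100 and 120 against days 65 and 80 had 31 calls, without *IRF7* in CF proximal lung (adjusted p = 0.0541 in edgeR). The difference between genotypes in change over time, and that over this boundary, had 0 each. Without the animal as a block, distal against proximal lung and its difference between genotypes gave 0 each. The contrast of days 100 and 120 with days 65 and 80, its difference between genotypes and the difference in distal against proximal lung were added after seeing the data. With 2 libraries per group and few reads of *CXCL11*, *MX2* and *IRF7* in the WT libraries before term, a difference that was not called is not shown to be absent.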

Other observations

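Of 18 chemokine genes outside the CXCR3 ligands in the table, of which 17 were tested in distal lung, 5 were higher and 0 lower at days 100 and 120 than at days 65 and 80 in WT proximal lung, 2 and 0 in CF proximal, 4 and 0 in WT distal, and 4 and 0 in CF distal lung, beside 3.76% and 3.18%, 3.18% and 2.93%, 7.94% and 5.16%, and 7.87% and 5.36% of all genes tested. Averaged over days 65 to 120, 2 of them were higher and 0 lower in CF than in WT in each region, where 13.8% of all genes tested were higher and 6.77% lower in proximal lung, and 18.6% and 13.6% in distal lung. These lists were chosen with earlier results known, and no difference between them and the members was tested.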
